A study of Mus musculus with 4 samples.

Results

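The 10 genes described here encode vascular endothelial growth factors (VEGF), the receptors that bind them and the related angiogenic receptors, in *Terc*-/- mouse embryonic stem cells (mESCs) at PD100 and at PD800, where PD is the number of population doublings. They were *Vegfa*, *Vegfb*, *Vegfc*, *Pgf*, *Flt1*, *Kdr*, *Flt4*, *Nrp2*, *Tek* and *Pdgfrb*, matched by symbol among the 53379 gene identifiers of the files. The genes were chosen by their expected counts and TPM in the comparison of PD800 with PD100, so that the difference between the groups is given for them as a description, without a test. All 10 passed the filter on low counts, which left 19148 genes.

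All 4 libraries came from DKO741, one of the *Terc*-/- lines made from E14 mESCs by replacing both alleles of *Terc*, the RNA template of telomerase, with a construct whose neo gene was removed by Cre recombinase after the first targeting. The PD100 group (2 libraries) was harvested before and the PD800 group (2 libraries) after the cells had begun to maintain telomeres without telomerase. Both groups lack *Terc*, and both come from this single line, so that doubling number and the history of the culture cannot be told apart. The cells were kept on mouse fibroblast feeders for maintenance and grown feeder-free before RNA was taken. The replicates are described as biological duplicates, and no source used here says whether they were separate cultures.

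*Terc* had 1 and 0 expected counts in the PD100 libraries and 0 in both PD800 libraries. The library totals lay between 32454121 and 38492149 expected counts, and a floor of 3 counts corresponded to between 0.0743 and 0.0933 CPM (the count scaled to the size of the library, with TMM-adjusted totals). All 10 embryonic stem cell markers, *Nanog* among them, were tested, 3 of them were higher in PD800 and none lower, and their summed TPM (a level per transcript length, with one common total for all libraries) was 1562 and 1867 at PD100 and 2218 and 2265 at PD800. *Emcn*, an endothelial sialomucin, was at 0 in all 4 libraries. *Cdh5*, the cadherin of endothelial junctions, had a mean of 1.12 CPM at PD100 and 0.206 CPM at PD800. Other genes of the endothelial list had higher levels, such as *Pecam1* (61.9 and 78.0 CPM) and *Egfl7* (22.0 and 19.2 CPM), and the whole list is given with the other markers at the end.

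VEGF ligands are secreted dimers that bind receptor tyrosine kinases on endothelial cells and drive the growth of blood and lymphatic vessels. VEGF-A acts mainly through KDR, FLT1 binds VEGF-A, VEGF-B and PGF and limits VEGF-A signalling as a high-affinity decoy, and FLT4 is the receptor of VEGF-C in lymphatic endothelium. Neuropilins present these ligands to the receptors, TEK binds angiopoietins and PDGFRB recruits the mural cells that wrap vessels. In cultures of mESCs, *Kdr* is known as a marker of the mesoderm that gives rise to endothelium and blood once differentiation begins.

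The sequences before the start sites of *Flt1*, *Kdr* and *Nrp2* are shown because these 3 receptor genes had the 3 lowest PD800 levels relative to PD100 among the receptors and coreceptors. They were read from RefSeq promoter windows of GRCm38.p6, 5′ to 3′ on the strand of the gene, and end at the base before the annotated gene. Capitals mark the GC box (GGGCGG or its complement CCGCCC, the motif of SP1) and the ETS core (CCGGAA or its complement TTCCGG). The stretch of *Flt1* is chr5:147726012-147726261 on the minus strand, that of *Kdr* is chr5:75978459-75978705 on the minus strand, and that of *Nrp2* is chr1:62703067-62703284 on the plus strand.
Flt1: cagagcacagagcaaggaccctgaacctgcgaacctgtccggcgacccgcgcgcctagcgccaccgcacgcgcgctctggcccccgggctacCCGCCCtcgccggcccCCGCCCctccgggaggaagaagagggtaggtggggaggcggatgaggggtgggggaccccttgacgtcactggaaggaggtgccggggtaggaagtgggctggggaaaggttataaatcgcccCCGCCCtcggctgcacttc
Kdr: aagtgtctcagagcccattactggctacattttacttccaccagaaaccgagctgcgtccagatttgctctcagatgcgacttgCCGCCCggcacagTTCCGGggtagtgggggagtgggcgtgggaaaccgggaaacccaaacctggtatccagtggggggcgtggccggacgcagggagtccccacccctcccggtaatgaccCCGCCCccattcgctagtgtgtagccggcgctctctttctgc
Nrp2: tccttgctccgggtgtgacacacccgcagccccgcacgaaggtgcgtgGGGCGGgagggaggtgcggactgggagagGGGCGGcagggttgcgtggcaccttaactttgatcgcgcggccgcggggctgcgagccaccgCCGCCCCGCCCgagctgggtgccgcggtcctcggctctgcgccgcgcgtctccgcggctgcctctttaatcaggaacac

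The *Flt1* stretch holds 3 GC boxes, that of *Kdr* 2 GC boxes and 1 ETS core, and that of *Nrp2* 4 GC boxes, of which the last pair overlaps by 1 base. The windows run from 250 bases before to 50 bases after the start, and only the 250 bases before it were searched. In these 250 bases a GC box was present in 8 of the 9 genes with a window used, and *Tek* was the exception. Of the 32851 windows in the table, 32.7% held one there. The G+C content of these bases was above the median of all windows, 52.4%, in 8 of 9 genes. It was 76.4% at *Vegfb* and 51.2% at *Tek*. The core of the hypoxia response element (ACGTG on either strand) was there in none of the 9 genes and in 16.6% of all windows. The ETS core was in 1 of 9, against 12.03%. A match describes these letters in these bases and says nothing about binding. No window was used for *Pdgfrb*.

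The VEGF receptor genes *Flt1*, *Kdr* and *Flt4*, the coreceptor *Nrp2* and *Tek* were lower in PD800 cells, *Pdgfrb* differed by less than the spread of its PD100 libraries, and the ligand genes differed in direction. The level of *Flt1* at PD800 was 4.20% of that at PD100, and *Nrp2*, *Kdr* and *Pgf* were between 3.32-fold and 4.0-fold lower. *Vegfa*, *Tek* and *Flt4* were lower by 1.33-fold to 1.63-fold, *Vegfc* was 1.57-fold higher, and *Vegfb* overlapped between the groups. By CPM, 8 of the 10 genes were lower in both PD800 libraries than in both PD100 libraries, which 36.3% of all tested genes were, and 1 was higher without overlap, against 37.4% of all tested genes. Of these, 4 were more than 2-fold lower by mean CPM, against 11.9% of all tested genes. Since the genes were chosen by this same difference, nothing is read from these shares. The median log2 fold change was -0.61 over the 10 genes and 0.01 over all tested genes.

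**Figure D1:**
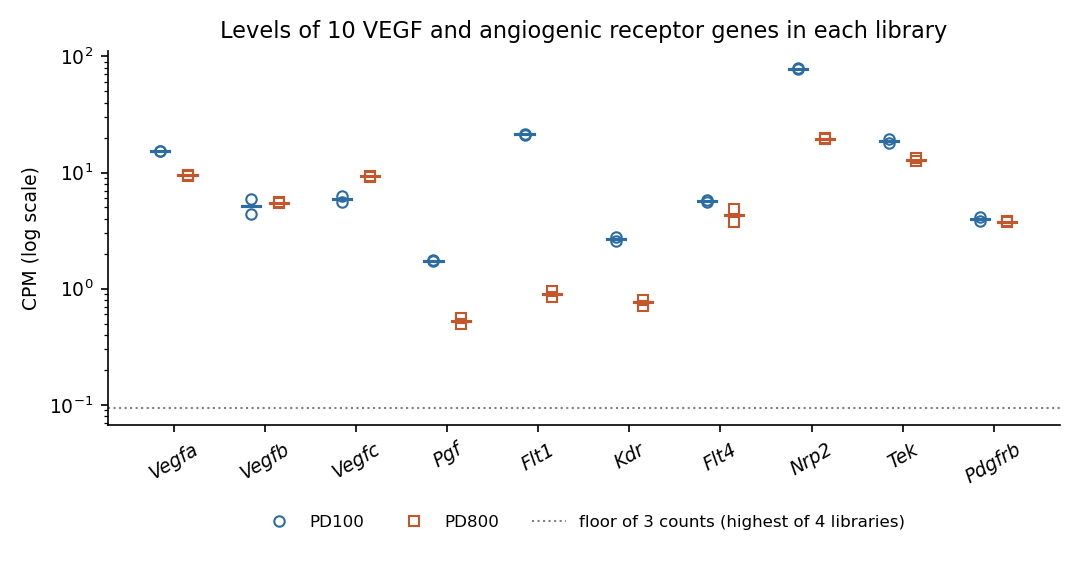
CPM of each of the 10 genes (log scale) in the 2 PD100 libraries (circles) and the 2 PD800 libraries (squares), with a line at each group mean and a dotted line at the highest floor of 3 counts. All values lie above the floor, the groups are farthest apart for *Flt1*, and they overlap at *Vegfb*.

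*Flt1* (ENSMUSG00000029648.13, chr5:147561604-147726011 in GRCm38, minus strand) had 867 and 704 expected counts at PD100 against 34 and 27 at PD800. As CPM these were 21.5 and 21.1 at PD100 and 0.945 and 0.840 at PD800. Both PD800 libraries were far below both PD100 libraries, and each of them was still well above the floor: the exact Poisson 95% interval was 23.5 to 47.5 counts for the first and 17.8 to 39.3 for the second. These intervals cover counting error only. The mean was 21.3 ± 0.272 CPM (SD, n = 2) at PD100 and 0.892 ± 0.0746 CPM (SD, n = 2) at PD800, a 23.8-fold lower level. The fitted log2 fold change was -4.57 (SE 0.12), and only 0.554% of the tested genes had a lower one. On the TPM scale, which also takes the length of the transcripts into account, the level was 3.36 and 2.76 at PD100 and 0.10 and 0.09 at PD800, 32.2-fold lower, and the log2 fold change was -1.89 after a pseudocount of 1 was added to TPM.

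*Flt1* is known to give a membrane receptor and shorter transcripts that encode a soluble form without the kinase. The annotation (GENCODE M21) holds 6 transcripts of the gene, from 6895 bases with 30 exons, through 6292 bases with 13 exons, to 274 bases. The gene length that RSEM reports is an average over the transcripts weighted by their estimated shares, and for *Flt1* it was 5138 and 5523 bases at PD100 and 6475 and 5619 bases at PD800. The PD800 values were the longer ones, but they rest on 34 and 27 counts and differ by more from each other than the lower of them does from the PD100 values.

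*Kdr* (ENSMUSG00000062960.10, chr5:75932827-75978458, minus strand), the main signalling receptor of VEGF-A, had 112 and 86 expected counts at PD100 and 29 and 23 at PD800. In CPM the values were 2.77 and 2.57 at PD100 and 0.806 and 0.715 at PD800, so that the groups did not overlap. The means were 2.67 ± 0.140 and 0.761 ± 0.0643 CPM (SD, n = 2 each), a 3.51-fold lower level at PD800, with a log2 fold change of -1.81 (SE 0.21). On the log2(TPM + 1) scale, which understates the difference of a gene at this level, it was -0.31, under 2-fold. *Kdr* had the lowest TPM of the 10 genes at PD100, 0.38 and 0.32, and shared the lowest place with *Flt1* at PD800, at 0.10 and 0.08. The exact 95% intervals of the PD800 counts were 19.4 to 41.6 and 14.6 to 34.5, so the low level was measured with wide counting error.

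*Flt4* (ENSMUSG00000020357.3, chr11:49609263-49652739, plus strand), the receptor of VEGF-C, had 235 and 186 counts at PD100 and 173 and 120 at PD800. These were 5.82 and 5.57 CPM at PD100 and 4.81 and 3.73 CPM at PD800. The difference between the PD800 libraries was larger than the gap between the groups. The means were 5.69 ± 0.176 and 4.27 ± 0.762 CPM (SD, n = 2 each), 1.33-fold lower at PD800, and the log2 fold change was -0.41 (SE 0.17). It was -0.61 without PD800 replicate 1 and -0.24 without PD800 replicate 2.

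The makeup of the VEGF receptor transcripts therefore differed between the groups. Summed over *Flt1*, *Kdr* and *Flt4*, the level was 4.54 and 3.76 TPM at PD100 and 0.75 and 0.57 TPM at PD800, with means of 4.15 ± 0.551 and 0.660 ± 0.127 TPM (SD, n = 2 each), 6.29-fold lower. *Flt1* made up 73.7% ± 0.427 of this sum at PD100 and 14.6% ± 1.74 at PD800 (SD, n = 2 each). The share of *Flt4* was 17.9% ± 0.328 at PD100 and 71.8% ± 2.23 at PD800, although its own level was lower at PD800, and that of *Kdr* was 8.44% ± 0.0994 and 13.7% ± 0.496. The PD800 shares rest on TPM values deposited with 2 decimals, which for *Flt1* and *Kdr* were 0.10 or less.

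Among the ligands, *Vegfa* (ENSMUSG00000023951.17, chr17:46016993-46032369, minus strand), the ligand that directs most vessel growth, had 617 and 517 counts at PD100 and 334 and 308 at PD800. The values were 15.3 and 15.5 CPM at PD100 and 9.29 and 9.58 CPM at PD800, with replicates close together in each group. The means were 15.4 ± 0.145 and 9.43 ± 0.207 CPM (SD, n = 2 each), 1.63-fold lower at PD800, with a log2 fold change of -0.70 (SE 0.09). By mean TPM the level was 2.09-fold lower. *Vegfa* is annotated with 13 transcripts, the most of the 10 genes, and its weighted length was 2226 and 2523 bases at PD100 and 2386 and 2745 bases at PD800, which overlap.

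*Vegfb* (ENSMUSG00000024962.13, chr19:6982473-6987651, minus strand), a ligand of FLT1, had 240 and 148 counts at PD100 and 195 and 178 at PD800. Its CPM of 5.94 and 4.43 at PD100 lay on either side of the 5.42 and 5.54 at PD800. The log2 fold change of 0.07 (SE 0.17) was below its standard error, and it was -0.14 without PD100 replicate 2, -0.15 on the log2(TPM + 1) scale and -0.18 on the log2(TPM + 0.1) scale.

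*Vegfc* (ENSMUSG00000031520.6, chr8:54077606-54187096, plus strand), the lymphatic growth factor, had 254 and 185 counts at PD100 and 332 and 300 at PD800. It was the only gene of the 10 with both PD800 libraries, at 9.23 and 9.33 CPM, above both PD100 libraries, at 6.29 and 5.54 CPM. The means were 5.91 ± 0.529 and 9.28 ± 0.0709 CPM (SD, n = 2 each), 1.57-fold higher at PD800, with a log2 fold change of 0.65 (SE 0.12). On the TPM scale the gap was narrower, from 2.29 and 2.18 at PD100 to 2.72 and 2.59 at PD800 (a log2 fold change of 0.18 on log2(TPM + 1)), and the weighted length of PD100 replicate 2, 1941 bases, was below the 2304 to 2359 bases of the other 3 libraries.

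*Pgf* (ENSMUSG00000004791.7, chr12:85166635-85177790, minus strand), placental growth factor, binds FLT1 and not KDR. It had 71 and 58 counts at PD100 and 20 and 16 at PD800, the lowest counts of the 10 genes at both times. As CPM these were 1.76 and 1.74 at PD100 and 0.556 and 0.498 at PD800. The groups were well apart, with means of 1.75 ± 0.0149 and 0.527 ± 0.0413 CPM (SD, n = 2 each), a 3.32-fold lower level at PD800 and a log2 fold change of -1.72 (SE 0.24). It was -0.66, under 2-fold, on the log2(TPM + 1) scale. The rule that chose the genes had no threshold, and at a 2-fold difference, by fitted log2 fold change *Pgf* was the gene just inside and *Vegfa*, at -0.70, the gene just outside, while *Vegfa* passed it at -1.03 on the log2(TPM + 0.1) scale.

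The summed level of the 4 ligands was 13.9 and 10.9 TPM at PD100 and 9.13 and 8.56 TPM at PD800, and the means of 12.4 ± 2.15 and 8.85 ± 0.403 TPM (SD, n = 2 each) differed by 1.40-fold. *Vegfa* made up the largest share of this sum at PD100, 41.8% ± 0.521, and 27.9% ± 2.16 at PD800, where the share of *Vegfb* was 39.2% ± 1.62 and that of *Vegfc* 30.02% ± 0.329 (SD, n = 2 each). *Pgf* made up 7.96% ± 0.182 and 2.89% ± 0.212. The ligand sum was 3.07 and 2.89 times the receptor sum in the PD100 libraries and 12.2 and 15.0 times in the PD800 libraries. By TPM the ligand sum was above the receptor sum in all 4 libraries, and their ratio was larger in both PD800 libraries. By CPM, which does not take transcript length into account, the receptor sum was the higher one in both PD100 libraries, 30.05 and 29.2 CPM against 29.3 and 27.2 CPM for the ligands.

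**Figure D2:**
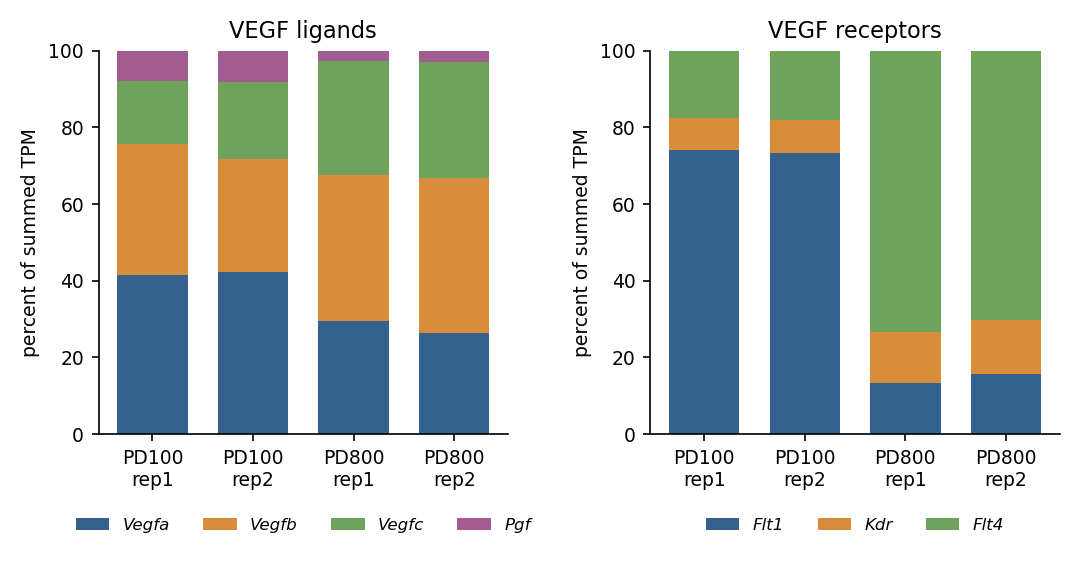
Percent of the summed TPM taken by each VEGF ligand (left) and each VEGF receptor (right) in the 4 libraries, as stacked bars from 0 to 100. *Flt1* makes up most of the receptor bars at PD100 and *Flt4* most of them at PD800.

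The neuropilin *Nrp2* (ENSMUSG00000025969.15, chr1:62703285-62818695, plus strand), a coreceptor of VEGF-C and of class 3 semaphorins, was the most abundant of the 10 genes at PD100. It had 3121 and 2666 counts at PD100 and 713 and 624 at PD800, the highest counts of the 10 at both times. As CPM these were 77.2 and 79.8 at PD100 and 19.8 and 19.4 at PD800, with replicates within a few percent of each other. The means were 78.5 ± 1.81 and 19.6 ± 0.294 CPM (SD, n = 2 each), 4.0-fold lower at PD800, with a log2 fold change of -2.0 (SE 0.08). Its weighted length hardly differed, 6056 and 6126 bases at PD100 and 6225 and 6150 bases at PD800. *Nrp2* overlaps the annotated genes *Gm29083* and *Gm37121*, of which *Gm37121* had a log2 fold change of -2.05; whether the counting used strand is not given in the sources used here, so reads of overlapping genes may not have been told apart. None of the other 9 genes overlaps an annotated gene.

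*Tek* (ENSMUSG00000006386.15, chr4:94739289-94874976, plus strand), the receptor of the angiopoietins, had 779 and 596 counts at PD100 and 480 and 401 at PD800. The values were 19.3 and 17.8 CPM at PD100 and 13.3 and 12.5 CPM at PD800, without overlap. The means were 18.6 ± 1.02 and 12.9 ± 0.617 CPM (SD, n = 2 each), 1.44-fold lower at PD800, with a log2 fold change of -0.52 (SE 0.09). *Tek* is also the gene whose sequence before the start stood apart, with the lowest G+C content of the 9 and no GC box.

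*Pdgfrb* (ENSMUSG00000024620.11, chr18:61045150-61085061, plus strand), the receptor of PDGF-B on pericytes, had 168 and 127 counts at PD100 and 134 and 122 at PD800. Its CPM was 4.16 and 3.802 at PD100 and 3.73 and 3.79 at PD800. The second PD100 library was level with the PD800 libraries, and the means of 3.98 ± 0.252 and 3.76 ± 0.0487 CPM (SD, n = 2 each) differed by less than the spread of the PD100 libraries. The log2 fold change was -0.08 (SE 0.15).

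The order of the levels per transcript length differed between the times. At PD100 the mean TPM was highest for *Nrp2* (9.81), followed by *Vegfa* (5.18), *Vegfb* (4.0), *Tek* (3.23), *Flt1* (3.06), *Vegfc* (2.24), *Pgf* (0.985), *Flt4* (0.740), *Pdgfrb* (0.565) and *Kdr* (0.350). The libraries of *Vegfa* and *Vegfb*, of *Vegfb* and *Tek*, and of *Tek* and *Flt1* overlapped, so these neighbours did not differ beyond their spread. At PD800 the first places were those of 3 of the 4 ligands, with *Vegfb* at 3.46, *Vegfc* at 2.66 and *Vegfa* at 2.48, before *Nrp2* (2.04), *Tek* (1.90), *Flt4* (0.475), *Pdgfrb* (0.450), *Pgf* (0.255), *Flt1* (0.095) and *Kdr* (0.090). Here *Vegfc* and *Vegfa*, *Nrp2* and *Tek*, *Flt4* and *Pdgfrb*, and *Flt1* and *Kdr* overlapped. *Flt1* went from the fifth place to the last but one.

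The study describes changes in DNA copy number near chromosome ends, so the genes were also set beside their neighbours. *Flt1* lies 3.98 Mb from the last annotated base of chromosome 5, the nearest to an end of the 10 genes, the others lying between 29.5 and 132.5 Mb away. The 55 other tested genes in the last 5 Mb of this chromosome had a median log2 fold change of 0.60, with 43 above 0, and by the edgeR call described below 13 were higher and 3 lower, the lowest being *Gm43461* at -4.08. The neighbours of *Flt1* on either side, *Pan3* and *Pomp*, had values of 0.47 and 0.33, and the median of its 40 nearest tested genes was 0.30, against -4.57 for *Flt1* itself. *Kdr* lies beside *Kit*, the stem cell factor receptor, whose mean was 29.8 CPM at PD100 and 107.6 CPM at PD800, a log2 fold change of 1.85 against -1.81 for *Kdr*. Some adjacent genes were lower, among them *Rps6kl1* beside *Pgf* (-1.38), *Gm12693* beside *Tek* (-1.49) and *Slc26a2* beside *Pdgfrb* (-1.52). Over the 10 genes the median of the 40 nearest genes lay between -0.36 at *Vegfb* and 0.30 at *Flt1*. With 20 neighbours the median was -0.55 in place of -0.29 at *Flt4*, below the -0.41 of *Flt4* itself, and -0.06 in place of -0.11 at *Nrp2*. With 40 neighbours, for *Pgf*, *Kdr*, *Nrp2* and *Flt1* the value of the gene minus that median lay between -4.87 and -1.89.

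**Figure D3:**
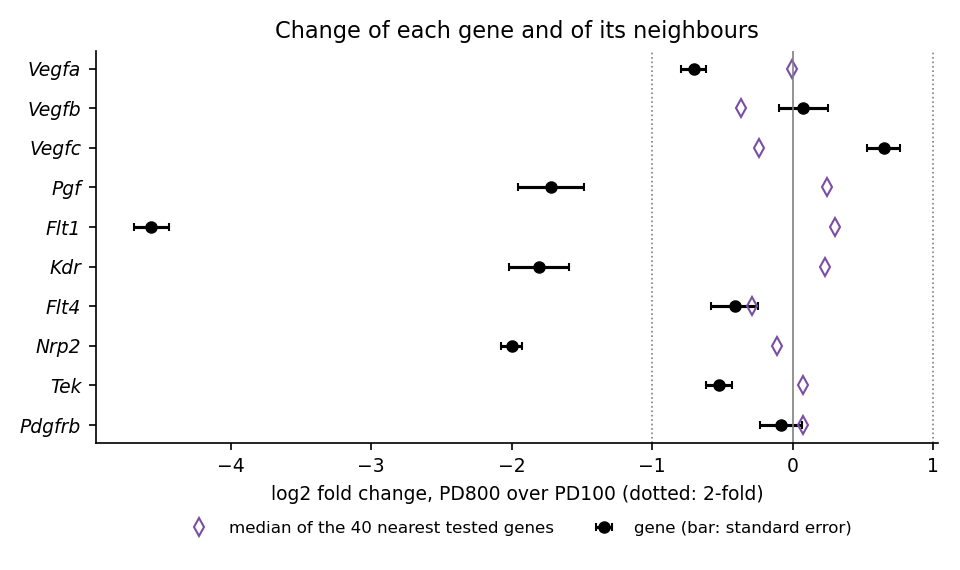
Fitted log2 fold change of each gene, PD800 over PD100 (filled circles, bars are the standard error), and the median of its 40 nearest tested genes on the same chromosome (open diamonds), with dotted lines at a 2-fold difference. *Flt1*, *Nrp2*, *Kdr* and *Pgf* lie beyond the 2-fold line, while every diamond lies between -0.36 and 0.30.

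The genes around the VEGF pathway, taken from lists of its ligands, receptors, processing enzymes, signalling proteins and regulators, were tested with edgeR in the fit across all genes. The call asked for an edgeR adjusted p below 0.01 together with a difference of more than 2-fold. By it, 8.81% of all tested genes were lower and 6.28% were higher in PD800. Of the 110 listed symbols, 109 were in the files and 103 were tested, and of these 29 (28.2%) were lower, 6 (5.83%) were higher, and the median log2 fold change was -0.44. The lower genes numbered 18 without PD800 replicate 1 and 14 on the log2(TPM + 1) scale, and the higher genes 3 without PD800 replicate 2, 9 without PD100 replicate 2, 1 on the log2(TPM + 1) scale and 2 with a pseudocount of 0.1.

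The lists of ligand, receptor and processing partners held calls on the lower side and none on the higher side, and several of their genes were not called. *Nrp1*, the other neuropilin, fell from 8.98 ± 0.63 to 1.66 ± 0.111 CPM (SD, n = 2 each), with a log2 fold change of -2.43 (SE 0.15, edgeR adjusted p = 0.000136), while the FLT4 ligand *Vegfd* was not called, at 0.53 (SE 0.34). Of 5 genes that process VEGF-C, *Furin*, a protease that cleaves its precursor, fell by 1.80 on the log2 scale (edgeR adjusted p = 0.000113) and the other 4 were not called. In the angiopoietin and TIE list 2 of 4 tested genes were lower. These were *Ptprb*, the phosphatase of endothelial receptors (log2 fold change -3.53, SE 0.33), and *Dok2*, an adaptor bound by TEK (-2.03, SE 0.13). The TEK ligand *Angpt2* was below the 2-fold threshold, at -0.68 (SE 0.12). Of the PDGF ligands and receptors 5 of 6 were lower. *Pdgfra*, the other PDGF receptor and also a marker of primitive endoderm, fell from 31.9 ± 1.65 to 1.04 ± 0.105 CPM (SD, n = 2 each; log2 fold change -4.93, SE 0.12, edgeR adjusted p = 3.03e-05), and *Pdgfb*, the ligand of PDGFRB, fell by 2.38 on the log2 scale (SE 0.23). *Pdgfa* was higher by 0.82 (SE 0.09), under the 2-fold threshold.

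The other lists held calls in both directions. Of 12 class 3 semaphorins and plexins, which share the neuropilins with VEGF, 4 were lower (*Sema3c*, *Sema3f*, *Sema3g* and *Plxnd1*) and 1 was higher, *Plxna4*, with a log2 fold change of 3.56 (SE 0.26) from 0.229 ± 0.0268 CPM (SD, n = 2) at PD100. *Sema3g* had at most 3 counts in each PD800 library and was at least 11.96-fold lower, measured against the group mean of the floor. Of 26 signal transducers of the VEGF receptors 4 were lower, among them the kinase *Fyn* (-1.71, SE 0.10) and the endothelial nitric oxide synthase *Nos3* (-1.53, SE 0.27), and 1 was higher, the phosphoinositide 3-kinase subunit *Pik3r1* (1.00, SE 0.09). Of 15 other angiogenic ligands, receptors and inhibitors 3 were lower and 2 higher. The angiogenesis inhibitor *Thbs1* fell from 175 ± 6.74 to 27.0 ± 0.189 CPM (SD, n = 2 each; edgeR adjusted p = 3.11e-05) and *Efnb2*, the ephrin of arterial endothelium, by 2.26 on the log2 scale, while *Notch4* rose by 1.85 (SE 0.23) and *Vash1*, an angiogenesis inhibitor, by 1.14 (SE 0.17).

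Of 21 genes of oxygen sensing and hypoxia targets 4 were lower and 1 higher, and the median log2 fold change was 0.07. *Hif1a*, the oxygen-regulated factor that acts on *Vegfa*, was not called, at 0.15 (SE 0.08), while *Epas1*, its relative in endothelium, fell from 43.6 ± 1.32 to 15.5 ± 0.429 CPM (SD, n = 2 each; edgeR adjusted p = 9.22e-05). Among the targets, *Pgk1*, a glycolytic enzyme, rose by 1.67 (SE 0.11) and *P4ha1*, a collagen hydroxylase, fell by 2.44 on the log2 scale. Of 12 tested endothelial transcription factors 5 were lower and 1, *Lmo2*, was higher (1.47, SE 0.29). Among the genes called lower whose mean over the libraries reached 1 CPM, the 3 largest falls were those of *Sox17* (-6.03, SE 0.15), *Ets1* (-3.77, SE 0.14) and *Sox7* (-2.94, SE 0.25). *Sox18*, with a mean below that limit, had a log2 fold change of -4.27 (SE 0.73). Of these, *Sox17* and *Sox7* also mark primitive endoderm.

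**Figure D4:**
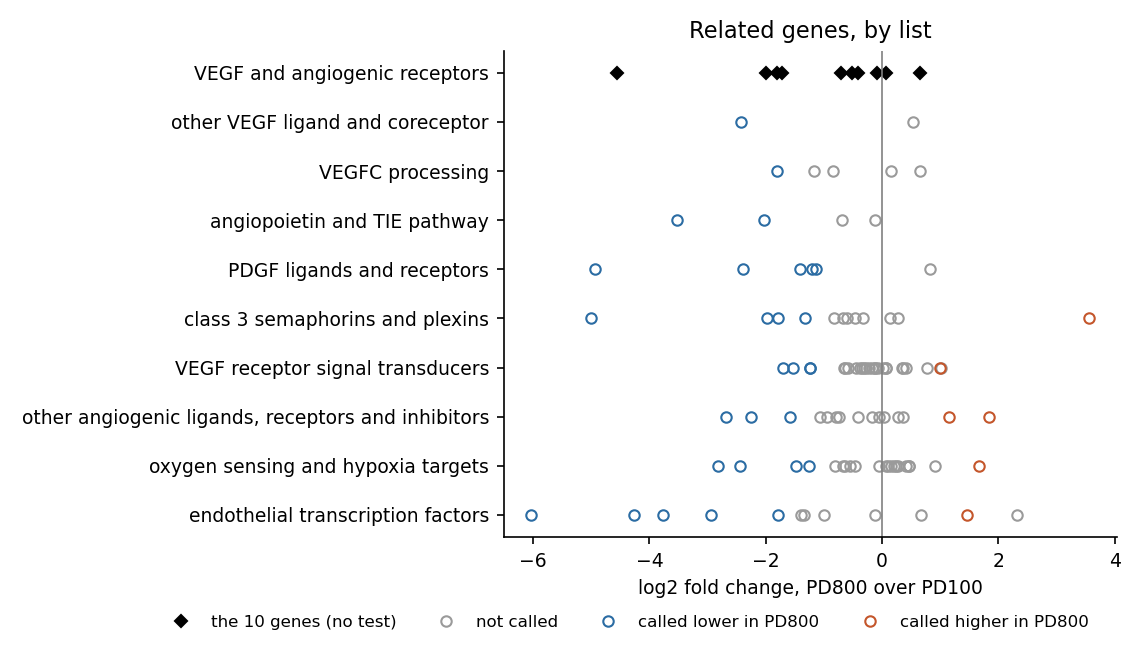
Fitted log2 fold change, PD800 over PD100, of the 10 VEGF and angiogenic receptor genes (black diamonds, no test) and of the tested genes of 9 related lists (circles, coloured by the edgeR call). Calls lie on the lower side in 29 of 103 genes and on the higher side in 6, and each list also holds genes that were not called.

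Markers of other cell types were tested in the same fit. The 9 tested primitive endoderm markers were all lower in PD800, and their summed TPM was 241 to 262 at PD100 and 14.7 to 15.0 at PD800, with *Foxa2* and *Afp* at or under the floor at PD800. The endothelial list, with 4 of 10 tested genes lower (*Cdh5*, *Esam*, *Plvap* and *Sox18*) and none higher, summed to 42.5 to 44.7 TPM at PD100 and 32.4 to 36.5 TPM at PD800. Most of its level came from *Egfl7* and *Pecam1*, which were not called and of which mESCs also express *Pecam1*, at 61.9 ± 4.56 CPM at PD100 and 78.0 ± 3.27 CPM at PD800 (SD, n = 2 each), while *Emcn* was at 0 and *Icam2* at or under the floor in all 4 libraries. Of 8 tested mural cell markers 4 were lower (*Tagln*, *Acta2*, *Cnn1* and *Cspg4*) and none was called higher, and *Tagln* had the highest level at PD100, 84.3 ± 11.3 CPM, and 8.22 ± 0.00551 CPM at PD800 (SD, n = 2 each). *Mcam*, the highest at PD800, had 52.5 ± 0.364 CPM at PD100 and 99.0 ± 3.42 CPM at PD800 (SD, n = 2 each; edgeR adjusted p = 0.000314), under the 2-fold threshold. *Rgs5*, a pericyte marker, had a log2 fold change of 1.24 (SE 0.29) and was not called. The mural sum was 90.3 to 92.8 TPM at PD100 and 36.8 to 37.2 TPM at PD800. Of 8 feeder fibroblast markers 5 were lower, with a sum of 13.2 TPM in both PD100 libraries and 3.72 to 3.78 TPM at PD800, where *Fap* was at or under the floor, while *Lum* was at or under it in both groups. Of 7 trophoblast markers 4 were lower, with a sum of 10.8 to 11.7 TPM at PD100 and 2.17 to 2.20 TPM at PD800 and *Prl3d1* at 0 throughout. Of 8 mesoderm and blood island markers 2 were lower and 2 higher, with a sum of 3.78 to 4.39 TPM at PD100 and 3.21 to 3.79 TPM at PD800 and *Hbb-bh1* at 0 throughout. The part of any of these cell types in the levels of the VEGF and angiogenic receptor genes was not tested, and in bulk RNA fewer cells of a type and less RNA per cell cannot be told apart.

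**Figure D5:**
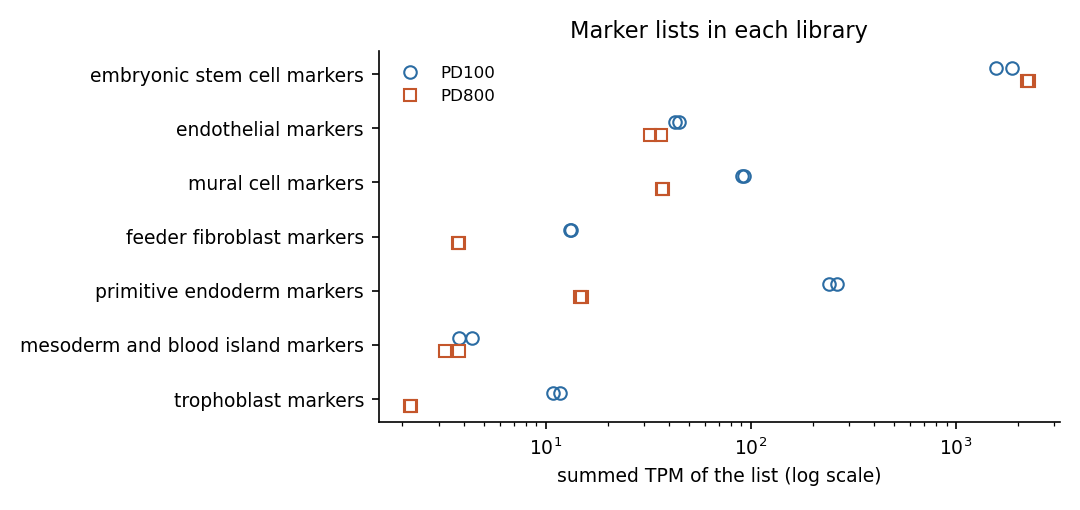
Summed TPM (log scale) of the embryonic stem cell markers and of 6 lists of markers of other cell types in the 2 PD100 libraries (circles) and the 2 PD800 libraries (squares). The primitive endoderm list shows the widest gap, from 241 to 262 TPM at PD100 to 14.7 to 15.0 TPM at PD800, and the mesoderm list overlaps.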

How the data were processed

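RNA of 4 libraries, 2 at PD100 and 2 at PD800, grouped by the titles in the labels, was sequenced by the authors as paired-end reads, aligned to mm10 with STAR 2.5.3a and quantified with RSEM 1.3.0. The deposited expected counts, one per gene and library, are not scaled for depth and divide reads that align to several genes. The deposited TPM values were scaled by the authors for transcript length and to a common total per library. Per the file headers, a further column holds the gene length weighted by transcript shares. The study describes mRNA and the labels total RNA, and the annotation release is not given in the sources used here. Coordinates came from GENCODE M21 (GRCm38), promoter windows from RefSeq (GRCm38.p6).

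Rounded expected counts were fitted with edgeR 4.0.16 under R 4.3.3 (TMM, filterByExpr at its minimum count of 10, quasi-likelihood test, Benjamini-Hochberg adjustment), after a check of the procedure on simulated data. Calls needed an adjusted p below 0.01 and more than a 2-fold difference, as in the study. The totals of 32454121 to 38492149 counts set a floor of 3 counts, and intervals are exact Poisson at 95%. Counts of the replicates differed by more than sampling noise, with a chi-square per degree of freedom of 66.3 at PD100 and 10.2 at PD800. The p-values measure the spread between these libraries, which may be technical. With 2 against 2 libraries an exact permutation test of a single gene cannot go below 0.333.

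The members and lists were chosen with earlier results of these data known. Genes named beyond the 10 are the called ones of each list with a mean of at least 1 CPM, at most 3 in each direction, and the most abundant marker of each list; *Vegfd*, *Angpt2*, *Pdgfa*, *Hif1a*, *Sema3g*, *Cdh5*, *Sox18*, *Pan3*, *Pomp*, *Kit*, *Egfl7*, *Rgs5*, *Cspg4*, *Gm43461*, *Rps6kl1*, *Gm12693*, *Slc26a2* and *Gm37121*, and markers at 0 or at the floor, were added after their values were seen. Of the marker lists, *Sox17*, *Sox7*, *Pdgfra*, *Erg*, *Tie1*, *Sox18*, *Tal1*, *Etv2* and *Lmo2* are in another list too. The alternatives were DESeq2 1.42.0, its size factors, upper-quartile scaling, no filter, a minimum of 10 counts per library, a replicate block, limma 3.58.1 on log2(TPM + 1) and log2(TPM + 0.1), CPM for the sums, 20 neighbours, and each library left out.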

Additional observations from a re-analysis of the deposited data

How the results depend on the processing

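The log2 fold changes of the 10 genes were computed under 12 alternatives each. All 60 values from counts with all libraries differed from the reported one by no more than the spread between replicates (the SDs of log2 CPM in both groups, combined), and 14 of the 20 on TPM scales moved by more. The lowest and highest values were -4.66 and -1.89 for *Flt1*, -1.90 and -0.31 for *Kdr*, -2.21 and -1.83 for *Nrp2*, -1.80 and -0.66 for *Pgf*, -1.03 and -0.68 for *Vegfa*, -0.61 and -0.24 for *Flt4*, -0.74 and -0.46 for *Tek*, -0.27 and -0.01 for *Pdgfrb*, and 0.18 and 0.75 for *Vegfc*. *Vegfb* reversed to -0.15 on log2(TPM + 1), -0.18 on log2(TPM + 0.1) and ranged from -0.14 without PD100 replicate 2 to 0.31 without PD100 replicate 1. On the TPM scales the median of all genes was -0.12 and -0.21, and 24.4% and 23.1% of the calls were higher, against 41.6%.

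With limma on log2(TPM + 1) there were 297 genes higher and 920 lower, 1 pathway gene higher and 14 lower, and 2 of the 10 genes more than 2-fold lower in place of 4. With log2(TPM + 0.1) there were 533 genes higher, 2 pathway genes higher, and 5 of the 10 genes more than 2-fold lower, *Vegfa* being added. Counted as CPM, the log2 ratio of the ligand sum was -0.19 in place of -0.49. With one library left out, the genes higher numbered 880 to 1514 and those lower 1274 to 1893. Pathway genes higher then numbered 3 to 9, with 3 without PD800 replicate 2 and 9 without PD100 replicate 2, and pathway genes lower 18 to 31, with 18 without PD800 replicate 1. The ligand ratio lay between -0.65 and -0.30 and the receptor ratio between -2.86 and -2.47, and 4 of the 10 genes remained more than 2-fold lower. The lone library of an arm is then assumed to vary like the others. DESeq2 gave 1070 genes higher and 1557 lower. The cause of these differences was not tested.

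The labels share replicate numbers, but nothing in them says that a number pairs libraries, and the deviations of same-numbered libraries had a correlation of 0.233. With the replicate block there were 1461 genes higher and 1956 lower, 7 and 32 pathway genes, and 4 of the 10 genes more than 2-fold lower.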
